A study of Mus musculus with 10 samples.

Results

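The 8 genes described here encode 4 cytokines and 4 receptor chains of the IL-6 and IL-10 systems, namely the ligands Il6, Lif, Osm and Il10 and the chains Il6ra, Il6st, Il10ra and Il10rb. They were listed by name as ligands and receptors of these systems, and each had a row among the 29700 rows analysed. RNA was sequenced from peritoneal macrophages of C57BL/6 mice aged 8 weeks, elicited with thioglycollate and collected on the third day, in 5 control libraries and 5 ox-LDL libraries. The labels describe the control cells as untreated and give LPS at 100 ng/ml and then oxidized low-density lipoprotein (ox-LDL) at 100 µg/ml for 16 h for the treated cells, although the description of the series can also be read as LPS in both groups. By the labels the effects of LPS and of ox-LDL cannot be told apart. No genetic change, transgene or sorting step is given for either group.

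Cytokines of the IL-6 family signal through a shared chain, gp130, which Il6st encodes. IL-6 first binds its own chain, IL-6 receptor alpha (Il6ra), whereas LIF and oncostatin M (Osm) pair gp130 with other chains of the family. IL-10 binds IL-10R1 (Il10ra), which then recruits IL-10R2 (Il10rb), a chain shared with IL-22 and lambda interferons. Both systems act through Janus kinases and the transcription factor STAT3. In macrophages IL-6 is known as an inflammatory product and IL-10 as a signal that restrains inflammatory genes, while SOCS3, an inhibitor that binds gp130, limits the response to IL-6.

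The total count per library was 20094647 to 20687289 in the control group and 19257131 to 20358017 in the ox-LDL group. Each of the 7 macrophage markers examined was detected, and their summed level was 22622 to 41936 CPM (counts scaled to a common library size, here without further normalization) in control and 12756 to 27770 in ox-LDL libraries. Most of that sum was Lyz2, which was not called (adjusted p = 0.371), and of the 7 markers Adgre1 was called higher (log2 fold change 2.07, adjusted p = 2.87e-04) and 0 lower. Summed markers of mesothelial and stromal cells were at 17.7 to 61.0 and 66.1 to 174 CPM. Of the 6 tested, 3 were called higher, Col1a1 (log2 fold change 2.72), Col1a2 (2.40) and Dcn (1.57), and 0 lower. Col3a1, Pdgfra and Wt1 were not called. Of those not tested, Upk3b was lower, at 0.290 to 0.844 CPM in control and 0 to 0.260 CPM in ox-LDL libraries. Krt19 reached at most 0.889 and 1.47 CPM, and Msln was at 0.312 CPM or less. Those of neutrophils were at 6.32 to 15.2 and 13.4 to 89.6 CPM, most of it S100a8, which was called higher (log2 fold change 2.76, adjusted p = 0.00310). Camp, not tested, was at most 0.0496 CPM in control and 0.156 to 0.786 CPM in ox-LDL libraries, while Mpo and Elane had at most 3 counts in any library. In control and ox-LDL libraries S100a9 reached at most 0.392 and 0.246 CPM, Retnlg 2.01 and 1.33 CPM, and Ngp 0.0981 and 0.260 CPM. Summed B cell and T cell markers did not exceed 3.45 CPM, those of dendritic cells were at 0.758 to 1.49 and 2.22 to 3.91 CPM, and those of mast cells and eosinophils at 2.85 to 7.94 and 0.564 to 1.92 CPM. Of the dendritic cell markers tested, Clec9a was called higher (log2 fold change 2.33, edgeR adjusted p = 0.00283) and Zbtb46 was not called. Of those of mast cells and eosinophils, Siglecf was called lower (log2 fold change -3.32, edgeR adjusted p = 3.17e-04) and Cpa3 was not called. The part of these other cells in the results was not tested. Control libraries 2, 3 and 5 and ox-LDL libraries 1, 3 and 4 gave relatively more counts to long genes, and control 1, control 4 and ox-LDL 2 to short genes. Ox-LDL 5 had almost no such trend (Spearman correlation with length 0.055). With the trend on gene length removed from each library the log2 fold changes were 6.86 for Il6, 3.70 for Osm, -1.84 for Il6ra and -1.29 for Il10rb, each still called. In bulk RNA, fewer cells of a type and less RNA per cell cannot be told apart.

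The upstream sequences of Il6, Lif and Il6ra are shown because Il6 and Lif rose from almost no reads and Il6ra, which encodes the chain that binds IL-6, fell. The RefSeq table for GRCm38.p6 held a promoter for 4 of the 8 genes (Il6, Lif, Il6ra and Il6st). The 250 bases before the start are given 5′ to 3′ on the strand of the gene, at chr5:30012864-30013113 for Il6 (plus strand), chr11:4257318-4257567 for Lif (plus strand) and chr3:89913197-89913446 for Il6ra (minus strand). Capitals mark letters that match a searched motif.
Il6: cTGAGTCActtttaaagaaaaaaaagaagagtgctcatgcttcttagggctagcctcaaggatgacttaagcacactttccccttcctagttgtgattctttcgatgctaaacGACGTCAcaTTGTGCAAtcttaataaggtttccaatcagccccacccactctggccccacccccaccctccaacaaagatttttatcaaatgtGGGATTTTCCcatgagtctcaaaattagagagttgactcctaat
Lif: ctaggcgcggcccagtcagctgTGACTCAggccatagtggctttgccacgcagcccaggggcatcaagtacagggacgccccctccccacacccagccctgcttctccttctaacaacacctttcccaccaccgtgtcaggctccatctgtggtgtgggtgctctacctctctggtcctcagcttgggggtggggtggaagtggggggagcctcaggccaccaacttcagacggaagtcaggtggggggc
Il6ra: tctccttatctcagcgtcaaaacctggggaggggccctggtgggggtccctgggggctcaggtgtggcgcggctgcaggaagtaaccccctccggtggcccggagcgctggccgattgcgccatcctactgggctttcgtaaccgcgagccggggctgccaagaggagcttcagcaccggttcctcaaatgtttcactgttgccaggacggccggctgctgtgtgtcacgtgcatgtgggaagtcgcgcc

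The 5 motifs were searched on both strands, and no pair of matches overlapped. The NF-kB motif, GGG and TTCC held 3 bases apart, matched the Il6 sequence once, 44 to 35 bases before the start, and was present in 4.65% of the 32851 promoters of the same length. The C/EBP letters TTGCNNAA matched 128 to 121 bases before the start on the opposite strand (9.56% of promoters). The CRE core GACGTCA matched 137 to 131 bases before it (2.78%), and the palindromic AP-1 letters TGANTCA 249 to 243 bases before it (6.75%). These are the binding letters of factors known to act on Il6. In Lif the AP-1 letters matched 228 to 222 bases before the start. The Il6ra and Il6st windows held none of the 5 motifs, the STAT letters TTCNNNGAA (7.02% of promoters) included. A match of letters is a description of the sequence and no measurement of binding.

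In the mm9 annotation, to which the authors aligned, Il6 lay at chr5:30339701-30346508 on the plus strand with 5 exons. Lif (chr11:4157560-4172517) and Osm (chr11:4136423-4141029) were neighbours on the plus strand, 16531 bases apart. Il10 lay at chr1:132916422-132921551 (plus), Il6ra at chr3:89673246-89717084 (minus), Il6st at chr13:113265216-113297068 (plus) and Il10ra at chr9:45061922-45077232 (minus). Il10rb (chr16:91406409-91426074, plus) shared 13288 bases of its span with Ifnar2 on the same strand, so reads of these genes could be split between them and the Il10rb count is uncertain to that extent. The other genes overlapped no annotated gene.

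Il6 and Osm rose, Il6ra and Il10rb fell, and Lif went from at most 1 read to at least 3 in each library. Il10, Il6st and Il10ra did not pass the test. Genes were tested in one fit over 12654 genes with edgeR's quasi-likelihood test, and called at a Benjamini-Hochberg adjusted p below 0.01. Among the 7 genes tested, 2 were called higher and 2 lower in ox-LDL, against a background of 9.4% and 5.35% of all genes tested. Requiring also a log2 fold change beyond 2 in size left 2 higher (background 4.78%) and 0 lower (1.93%). Il6, 1 of the 2 called higher, entered the fit only through its ox-LDL libraries, so the counts that hold it are descriptions. Among the 7 tested, the libraries of the groups did not overlap for 2 genes higher and 2 lower in ox-LDL, against 11.6% and 9.11% of genes tested. With Lif, which was not tested, 5 of the 8 genes did not overlap. The median log2 fold change of the 7 was -0.33, beside 0.10 for all genes tested. Levels of single genes are TMM-normalized CPM, given for replicates 1 to 5 in order.

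**Figure D1:**
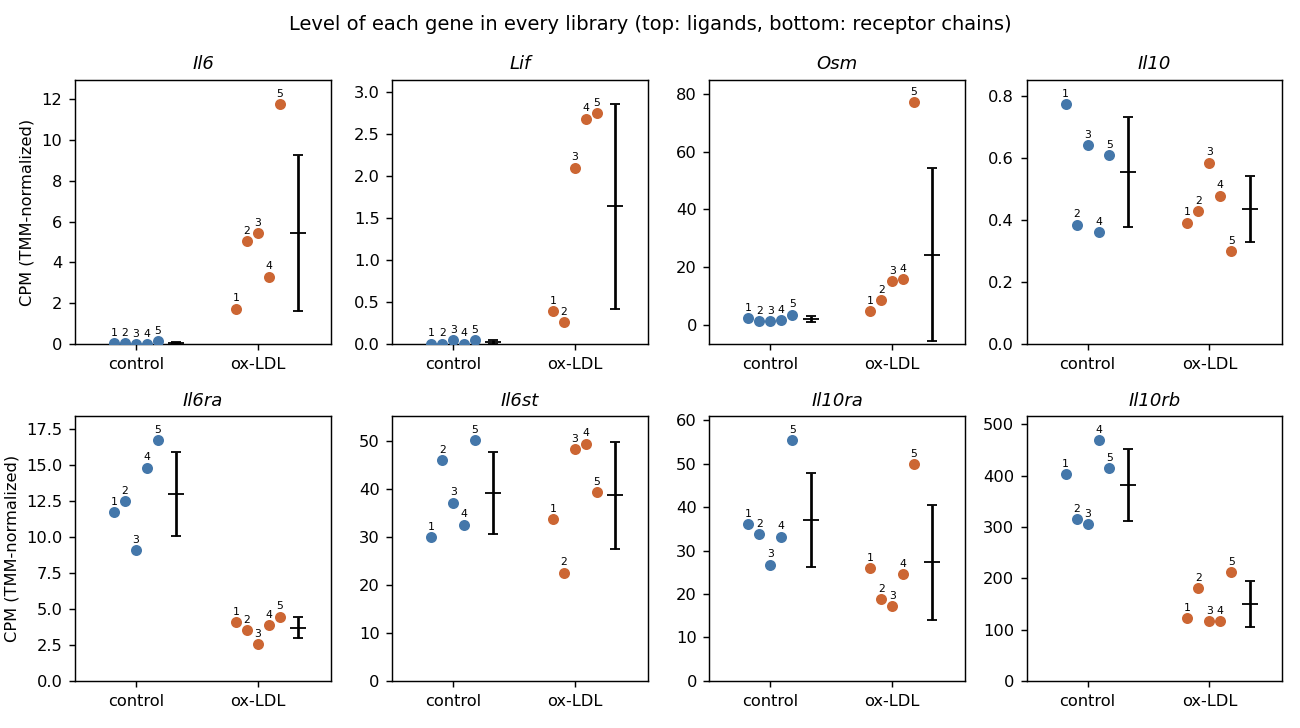
TMM-normalized CPM (y axis, a separate linear scale per panel) of each gene in the 5 control and 5 ox-LDL libraries; points are libraries with their replicate number, and bars give the mean ± SD. Il6, Lif and Osm were higher and Il6ra and Il10rb lower in every ox-LDL library than in every control library. Osm in ox-LDL 5 stood at 77.2 CPM. The SD bars of Il6 and Lif in control and of Osm in ox-LDL libraries reach below 0 although no level does.

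Il6, the inflammatory cytokine that names the family, was almost without reads in control macrophages. The control libraries had 0.0553, 0.0428, 0, 0 and 0.13 CPM (1, 1, 0, 0 and 3 counts). The ox-LDL libraries had 1.74, 5.05, 5.41, 3.30 and 11.8 CPM (40, 59, 111, 69 and 197 counts). The lowest ox-LDL library was thus far above the highest control library, and ox-LDL 5 was the highest of all. The mean went from 0.0457 ± 0.0535 to 5.45 ± 3.82 CPM (SD, n = 5 each). The log2 fold change was 6.69 (SE 0.75, 95% interval 5.06 to 8.32, edgeR adjusted p = 8.22e-05), the 46th highest among genes called higher. Summed over libraries, 5 counts stood against 476, a ratio of 110.0 after scaling with a counting interval of 46.8 to 340.3. That interval covers counting error alone. Il6 entered the fit only through its ox-LDL libraries.

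Lif, a cytokine that acts through gp130 and the LIF receptor, had too few reads for the fit across genes. The control libraries had 0, 0, 0.0428, 0 and 0.0434 CPM, that is 1 read each in controls 3 and 5. The ox-LDL libraries had 0.391, 0.257, 2.10, 2.68 and 2.75 CPM (9, 3, 43, 56 and 46 counts). The groups did not overlap, and the ox-LDL libraries lay in a low pair (1 and 2) and a high trio (3, 4 and 5). On log2(CPM + 1) the exact permutation test, two-sided, gave p = 0.00794, which no comparison of 5 with 5 libraries can go below. The summed counts were 2 and 157, a scaled ratio of 90.7 with a counting interval of 24.7 to 756. Without a filter on low counts edgeR gave Lif a log2 fold change of 6.00 (adjusted p = 1.11e-05).

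Osm encodes oncostatin M, a cytokine made by activated macrophages and neutrophils. It was expressed at a low level in controls, at 2.21, 1.28, 1.33, 1.55 and 3.52 CPM. In the ox-LDL libraries it reached 4.74, 8.65, 15.3, 15.8 and 77.2 CPM. The groups did not overlap, but the ox-LDL libraries spanned a 16.3-fold range, with replicate 5 far above the others. The mean was 1.98 ± 0.938 CPM without treatment and 24.3 ± 29.9 CPM with it (SD, n = 5 each). The log2 fold change was 3.62 (SE 0.71, 95% interval 2.06 to 5.17, edgeR adjusted p = 0.00307). Without ox-LDL 5 it was 2.47 (adjusted p = 0.00211), so the call did not need that library while the size of the fold did. The call was lost with limma-voom (adjusted p = 0.0103), with no filter on low counts (0.0271) and without control 2, 3 or 4 (0.0101 to 0.0111). Summed neutrophil markers, mostly S100a8, ran higher in ox-LDL libraries with overlapping ranges, as given above. S100a9 and Retnlg did not rise. The part of neutrophils in the Osm result was not tested.

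Il10, the anti-inflammatory cytokine of the set, stayed at a few reads per library in both groups. The control libraries had 0.774, 0.385, 0.642, 0.361 and 0.608 CPM (7 to 15 counts). After treatment it had 0.391, 0.428, 0.585, 0.478 and 0.299 CPM (5 to 12 counts). The groups overlapped, with control 2 and 4 inside the ox-LDL range. Controls 1, 3 and 5 were above every ox-LDL library, and ox-LDL 5 was below every control library. The log2 fold change was -0.33 (SE 0.35, 95% interval -1.09 to 0.43, edgeR adjusted p = 0.529). At this depth the interval spans a fall of 1.09 to a rise of 0.43 on the log2 scale. It does not say which differences could have been called, and this was not tested. In the deposited length-scaled values, treated as FPKM, the means were 0.264 in control and 0.116 in ox-LDL libraries. By these values controls 1, 3, 4 and 5 were above every ox-LDL library, and control 2 was inside their range. The gene length behind them varied from 1878 to 4996 bases between libraries, and the difference in FPKM was not tested.

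Il6ra, the chain that binds IL-6, was lower in every ox-LDL library. The control libraries had 11.7, 12.5, 9.11, 14.8 and 16.7 CPM. The ox-LDL libraries had 4.09, 3.51, 2.54, 3.88 and 4.48 CPM. The highest ox-LDL level was below the lowest control level by a wide margin, and the ox-LDL libraries lay close together (coefficient of variation 19.96%). The means were 13.0 ± 2.92 and 3.70 ± 0.738 CPM (SD, n = 5 each). The log2 fold change was -1.81 (SE 0.23, 95% interval -2.30 to -1.32, edgeR adjusted p = 1.73e-04), a 3.51-fold lower level that did not reach the log2 cutoff of -2. It was the 287th largest fall among genes called lower.

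Il6st, which encodes gp130, showed no such difference. It stood at 29.9, 46.0, 37.1, 32.6 and 50.04 CPM in control libraries. Treated cells had 33.7, 22.5, 48.2, 49.4 and 39.4 CPM. The lowest ox-LDL library was replicate 2, and the other ox-LDL libraries lay inside the control range. The means were 39.1 ± 8.63 and 38.6 ± 11.1 CPM (SD, n = 5 each), with a log2 fold change of -0.02 (SE 0.24, 95% interval -0.53 to 0.50, edgeR adjusted p = 0.968). With the trend on gene length removed from each library it was -0.24 (adjusted p = 0.203).

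Il10ra, the chain that binds IL-10, had 36.2, 33.9, 26.8, 33.2 and 55.4 CPM in control libraries. Treated cells had 26.05, 18.8, 17.2, 24.6 and 49.99 CPM. In each group replicate 5 was the highest, and 4 of the 5 ox-LDL libraries were below every control library, with ox-LDL 5 above 4 of the 5 controls. The means were 37.1 ± 10.8 and 27.3 ± 13.2 CPM, and the log2 fold change was -0.44 (SE 0.30, 95% interval -1.10 to 0.22, edgeR adjusted p = 0.307). Without ox-LDL 5 it was -0.79 (adjusted p = 0.0293), and without both libraries numbered 5 it was -0.64 (adjusted p = 0.0463), each still above the threshold of 0.01.

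Il10rb, the second chain of the IL-10 receptor, had the highest FPKM of the 8 genes and fell. The control libraries had 404, 315, 306, 469 and 416 CPM. In the ox-LDL group it was at 123, 181, 117, 116 and 213 CPM. The groups did not overlap, and ox-LDL 2 and 5 lay above the other ox-LDL libraries. The control mean was 382 ± 69.7 and the ox-LDL mean 149.9 ± 44.2 CPM (SD, n = 5 each). On the log2 scale the fold change was -1.35 (SE 0.24, 95% interval -1.88 to -0.82, edgeR adjusted p = 0.00171). It was a 2.55-fold lower level, with the limit on its reads given above.

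**Figure D2:**
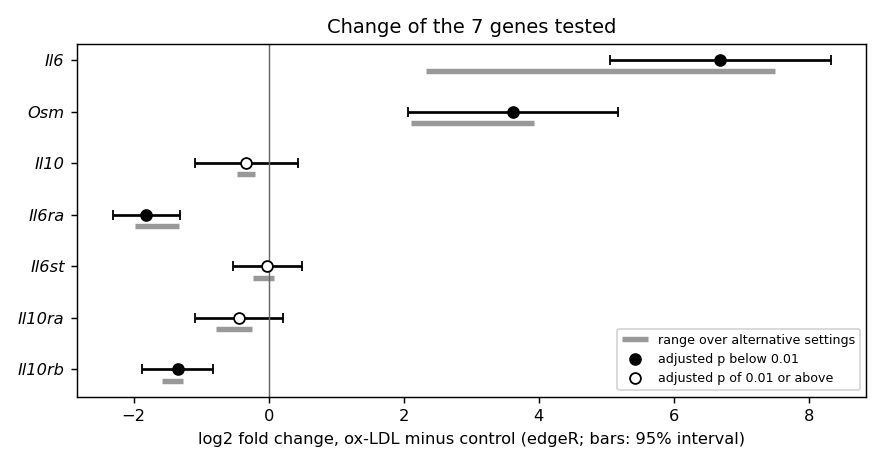
Log2 fold change (x axis, ox-LDL minus control) of the 7 genes tested with edgeR's 95% interval; filled points passed an adjusted p of 0.01, and grey bars give the range over the alternative settings. Il6 (6.69) and Osm (3.62) lay right of 0 and Il6ra (-1.81) and Il10rb (-1.35) left of it, with the grey bars on the same side; the low end of the Il6 bar, 2.32, is on the log2(FPKM + 1) scale.

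To order the genes by level, the deposited length-scaled values, treated as FPKM, were used. In control macrophages the median FPKM fell from Il10rb (213.66) through Il10ra (11.07), Il6st (8.54), Il6ra (4.47), Osm (0.88), Il10 (0.31) and Il6 (0.05) to Lif (0). The control ranges were apart between Il10rb and Il10ra, between Il6ra and Osm and between Osm and Il10, and overlapped for the other neighbours. In ox-LDL libraries the order was Il10rb (74.53), Osm (9.17), Il10ra (8.7), Il6st (7.87), Il6 (3.59), Il6ra (1.15), Lif (0.55) and Il10 (0.13). There, the ranges were apart between Il10rb and Osm and between Il6 and Il6ra alone, while Osm, Il10ra and Il6st could not be ordered. Thus the 4 receptor chains stood above the 4 ligands in the control medians, and in the ox-LDL medians Osm stood above 3 of the 4 chains and Il6 above Il6ra. The length behind the Il10 value varied from 1878 to 4996 bases between libraries, so its place is the least certain.

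Ratios of a pair of genes within one library do not depend on how libraries are scaled. The trend on gene length can still enter them, since the genes of a pair differ in length. Median lengths behind the FPKM values were 3188 bases for Il6ra and 4938 for Il6st, and 3095 for Il10ra and 1693 for Il10rb. For Il6 and Il10 they were 993 and 2838. The ratios were not corrected for this trend. The 3 ratios were compared by two-sided exact permutation tests, with adjustment over the 3. They are given as log2 ratios of counts with 0.5 added to each. The ratio of Il6ra to Il6st, the IL-6 chain against the shared chain, was -1.35, -1.88, -2.02, -1.13 and -1.58 in control libraries. It was -3.03, -2.67, -4.24, -3.66 and -3.13 in ox-LDL libraries. The groups did not overlap, with a difference of -1.75 (exact permutation test, p = 0.00794, adjusted p = 0.0119). In median FPKM the ratio went from 0.548 to 0.175.

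The ratio of Il10ra to Il10rb moved the other way. It was -3.48, -3.22, -3.51, -3.82 and -2.91 in control libraries. In ox-LDL libraries it was -2.24, -3.26, -2.77, -2.24 and -2.09. In this ratio, 4 of the 5 ox-LDL libraries were above every control library, and ox-LDL 2 lay inside the control range. The difference was 0.87 (exact permutation test, p = 0.0238, adjusted p = 0.0238), and the overlap of Il10rb with Ifnar2 bears on this ratio as well. Both genes of the pair had lower means in ox-LDL, and Il10rb had the larger fall.

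The ratio of the inflammatory to the anti-inflammatory ligand, Il6 to Il10, had a mean log2 value of -3.37 ± 1.12 in control and 3.32 ± 1.15 in ox-LDL libraries (SD, n = 5 each). Control values ran from -4.95 to -2.05 and ox-LDL values from 2.09 to 5.17, so Il6 counts were below Il10 counts in every control library and above them in every ox-LDL library. The difference was 6.68 (exact permutation test, p = 0.00794, adjusted p = 0.0119). Of the pair, Il6 passed the test on its own and Il10 did not.

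**Figure D3:**
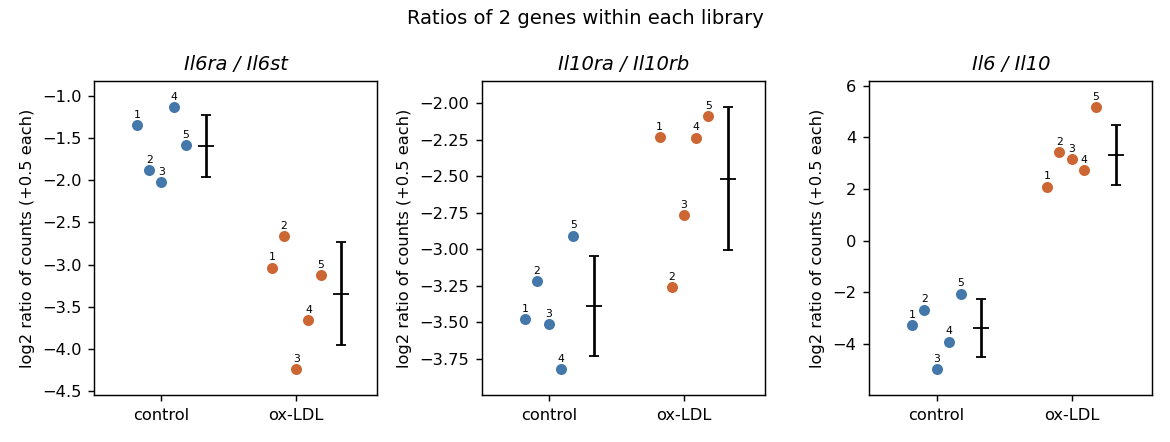
Log2 ratio of counts (y axis, 0.5 added to each count) for 3 gene pairs in the 5 control and 5 ox-LDL libraries; points are libraries with their replicate number, and bars give the mean ± SD. Il6ra to Il6st fell by 1.75 and Il6 to Il10 rose by 6.68 with no overlap, while Il10ra to Il10rb rose by 0.87 with ox-LDL 2 inside the control range.

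The libraries of a group varied together for some of the genes. Over the 10 libraries, after subtracting each group's mean from log2(CPM + 1), Il6 and Osm had a Pearson r of 0.88, Lif and Osm of 0.74, and Il6 and Lif of 0.51. Osm and Il10ra had an r of 0.73 and Lif and Il6st of 0.72. For Il10rb it was 0.64 with Il6 and 0.56 with Osm, and for Il10 and Il6ra it was -0.54. Among 8109 genes searched, the closest to Il6 were Car13 (0.97), Fam111a (0.97) and Nampt (0.96). The closest to Osm were Zmynd15, Ptafr and Irf5 (0.97 each). Rasgef1b (0.99), Actr1b (0.98) and Slc7a2 (0.98) were closest to Lif. For Il10, with at most 15 counts per library, the closest were Ap3s2 (0.82), 4930447K03Rik (0.80) and Atg4d (0.77). Il6 had at most 3 counts and Lif at most 1 in any control library, so their values rest mainly on the ox-LDL libraries. All these values describe 10 libraries that share depth, the trend on gene length and the high ox-LDL 5 library, and they say nothing of shared control.

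The counts for the lists of other pathway genes that follow stand beside 9.4% of all genes tested called higher and 5.35% called lower. Of the listed genes tested, 7 (Clcf1, Il27, Osmr, Socs1, Socs2, Cish and Ddit4) reached the minimum count in every ox-LDL library but not in every control library, and all 7 were called higher. They passed the filter through the group where they were high, so their calls and the list counts that hold them are descriptions. The other ligands of the IL-6 family rose where they could be tested. Of 7 such genes, 3 had enough reads, and 3 were called higher and 0 lower (median log2 fold change 2.86). Il27, a subunit of IL-27, went from 0.309 to 0.599 CPM in controls to 2.00 to 22.6 CPM after treatment (log2 fold change 4.29, adjusted p = 5.60e-04). Clcf1, a ligand of the ciliary neurotrophic factor receptor, rose by 2.86 on the log2 scale (adjusted p = 5.18e-04). Ebi3, the partner of Il27, rose by 0.80 (adjusted p = 0.00702), a call that was lost in 16 of 23 alternative settings.

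Of the 4 other receptor chains of the IL-6 family tested, 1 was called higher and 1 lower, with a median log2 fold change of 0.12. Osmr, the chain that pairs with gp130 to bind oncostatin M, lay at 0.332 to 0.899 CPM in controls and at 1.28 to 6.73 CPM in treated cells. The groups did not overlap (log2 fold change 2.92, adjusted p = 6.11e-04). Il27ra, the specific chain of the IL-27 receptor, fell by 1.22 on the log2 scale (adjusted p = 0.00634), with control 5 inside the ox-LDL range, and its call was lost in 12 of 23 settings. Among other ligands and receptors of the IL-10 family only Il20rb could be tested (log2 fold change 0.66, adjusted p = 0.0929). Il22, singled out after its values were seen, had 0 counts in all control libraries and 3 to 41 counts (median 8) in the ox-LDL libraries, at least 33.9-fold higher against 3 counts over the control group.

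Of the 10 kinases, STATs and adaptors of these pathways, 3 were called higher and 0 lower (median log2 fold change 0.68). Stat3, the main STAT of both pathways, was at 22.2 to 55.4 CPM in controls and at 77.2 to 238 CPM in treated cells (log2 fold change 1.85, adjusted p = 0.00210, lost in 2 of 23 settings). The kinase Jak2 rose by 1.64 on the log2 scale (adjusted p = 1.12e-04).

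Of 8 feedback inhibitors, 5 were called higher and 0 lower (median log2 fold change 2.23). Socs3, which binds gp130, had 1.94, 2.35, 1.88, 3.04 and 8.43 CPM in control libraries. It had 49.1, 92.2, 82.3, 116 and 506 CPM in ox-LDL libraries. The groups did not overlap, and replicate 5 was the highest in both (log2 fold change 5.58, adjusted p = 3.22e-04). Cish, another inhibitor of the SOCS family, had at most 3 counts per control library and a log2 fold change of 6.25, and Socs2 one of 3.15, and both entered the fit only through their ox-LDL libraries. Ptpn2, a phosphatase of Janus kinases and STATs, rose by 1.31 (adjusted p = 0.00511), and this call was lost in 8 of 23 settings.

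Genes known to respond to STAT3 in macrophages rose in 12 of 14 cases with 0 lower (median log2 fold change 2.05). Nfil3, a transcription factor, was at 2.88 to 7.25 CPM in controls and at 18.7 to 63.9 CPM in treated cells (log2 fold change 3.02, adjusted p = 1.14e-04). Tnip3, which restrains NF-kB signaling, rose by 1.64 (adjusted p = 3.94e-04) and Sbno2, a corepressor, by 1.44 (adjusted p = 0.00155, lost in 3 of 23 settings). Several of these genes also respond to LPS by other routes, so the list does not separate IL-6 or IL-10 signaling from the treatment.

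Of 11 tested transcription factors known to act on Il6 or Il10, 3 were called higher and 1 lower (median log2 fold change 0.88). Cebpb, a C/EBP factor, was at 44.3 to 73.0 CPM in controls and at 130 to 406 CPM in treated cells (log2 fold change 2.19, adjusted p = 2.76e-04). Nfkbiz, a nuclear cofactor of NF-kB needed for Il6, rose by 1.98 (adjusted p = 5.49e-04). Maf, a factor known to drive Il10 in macrophages, was at 22.6 to 38.9 CPM in controls and at 4.83 to 14.3 CPM in treated cells, with no overlap (log2 fold change -1.64, adjusted p = 0.00189).

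Of 5 regulators of cytokine mRNA decay, 2 were called higher and 0 lower (median log2 fold change 1.62). These act in opposite ways on Il6 mRNA. Arid5a, known to stabilize it, rose by 2.67 on the log2 scale (adjusted p = 2.95e-05), and Zc3h12a, the nuclease Regnase-1 that degrades it, rose by 1.99 (adjusted p = 0.00100, lost in 1 of 23 settings). Of 3 genes of receptor shedding, Rhbdf2, a partner of the protease ADAM17, rose by 1.83 (adjusted p = 8.39e-04, lost in 1 of 23 settings). Adam10, a protease known to cut the IL-6 receptor, fell by 0.95 (adjusted p = 0.00556), a call lost in 12 of 23 settings. Counting each gene once, the 9 lists held 71 genes, of which 57 were tested, with 28 called higher, 3 lower and a median log2 fold change of 1.03. In both groups 49 of the 57 reached the minimum count in every library, and of these 21 were called higher and 3 lower. Over the lists, refits gave 32 higher and 4 lower without ox-LDL 2, 24 and 2 without both libraries numbered 5, and 27 and 3 with the length trend removed. Over all genes tested, the refit without ox-LDL 2 gave 1755 higher and 1502 lower of 12973. Without both libraries numbered 5 it was 809 and 566 of 12824, and with the length trend removed 1650 and 1218 of 12654.

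**Figure D4:**
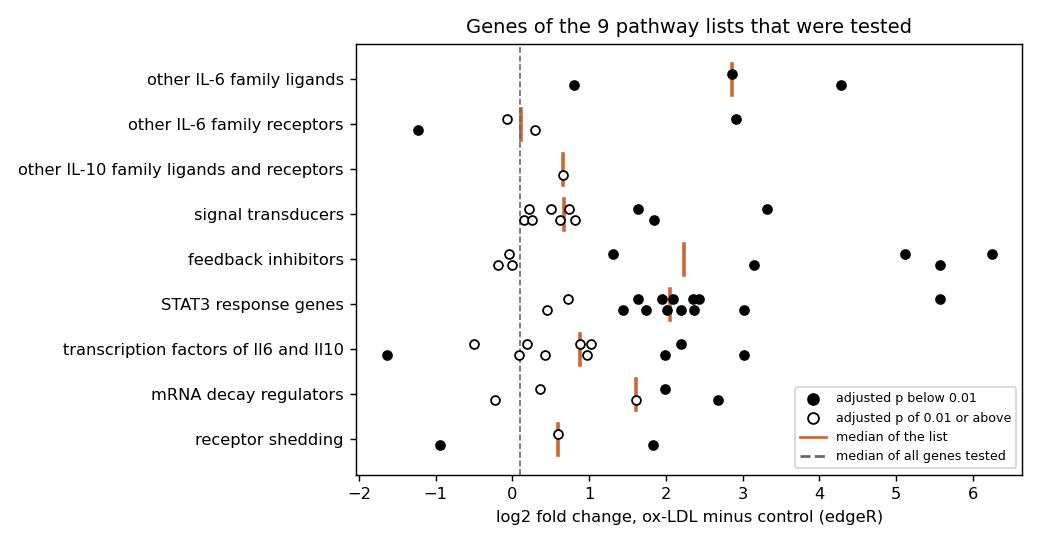
Log2 fold change (x axis, ox-LDL minus control) of every tested gene in 9 lists of other pathway genes (rows); filled points passed an adjusted p of 0.01, orange bars are list medians and the dashed line is the median of all genes tested (0.10). Feedback inhibitors reach 6.25 (Cish) and the STAT3 response genes have a median of 2.05, while the lowest gene is Maf at -1.64.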

How the data were processed

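Per the submitters' notes and methods, the authors mapped reads with HISAT2 2.0.5 (build mm9), used SAMtools 1.4 and StringTie, and deposited estimated counts per gene (13.6% of values not whole) and length-scaled values without a named unit. These deposited values are treated as FPKM, since the gene length they imply ranged by a median of 5.76% between libraries. The counting step and its use of strand are not given in the sources used here. The 9788 circular RNA rows were left out, and symbols come from RefSeq.

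Counts were rounded. Genes were filtered with filterByExpr, normalized by TMM (factors 0.593 to 1.19) and tested with edgeR 4.0.16 (glmQLFit, robust, R 4.3.3), adjusting over 12654 genes. The biological coefficient of variation was 37.3%. Single values (5 libraries a group) went into exact permutation tests with scipy 1.17.1. The series describes the replicates as biological, without saying whether each came from its own mouse. No 2 libraries were near-identical. The procedure was tested on simulated data.

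Named genes were the 8 genes, from each list the top 2 and bottom 2 of its called genes by log2 fold change (without a called gene, the 2 most abundant) and the 3 closest in pattern to each ligand. A gene that this rule names is not reported here. The 8 genes were picked by name, by a rule without measured values, but they, the lists and the tests were chosen with earlier results of these data known. Il22 is outside the rule. Alternatives were DESeq2 1.42.0, limma 3.58.1 (voom, and log2 FPKM with a pseudocount of 1 or 0.1 for genes with at least 1 FPKM in 5 libraries), other normalizations and filters, a replicate block, a length correction and leaving out libraries.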

Additional observations from a re-analysis of the deposited data

Results flagged for a closer look

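Of 22 groups of 5 libraries examined, 2 held a library far from the rest by Dixon's test, and chance gives about 1 in 20. Osm stood at 77.2 CPM in ox-LDL 5, against 15.8 CPM in the next library and 4.74 CPM in the lowest, so that the gap was 0.847 of the range. Il10ra stood at 49.99 CPM in the same library, against 26.05 CPM in the next and 17.2 CPM in the lowest, a gap of 0.729 of the range. The results for both genes without this library are given with their levels. What sets this library apart was not tested.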

How the results depend on the processing

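Il6 kept its call in 22 of 22 settings, Il6ra and Il10rb in 23 of 23, and Osm in 18 of 23, and the cause of the lost calls was not tested. The number of these genes called higher was 1 with limma-voom, 1 with at least 10 counts in every library (where Il6 was not tested) and 1 to 2 when libraries were left out in turn, and 2 were lower throughout. The change of Il6st, never called, ran from -0.12 to 0.086 when libraries were left out in turn (0.040 without control 2, 0.083 without control 5, 0.030 without ox-LDL 1 and 0.086 without ox-LDL 2) and was 0.034 without both libraries numbered 5. Il10 was called in 0 of 20 settings (adjusted p 0.391 to 0.767), and the settings on FPKM did not test Il10.

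Over all genes, the number higher was 704 with library size alone, 563 with limma on log2(FPKM + 1) and 528 with log2(FPKM + 0.1), against 1189. The number lower was 1244 with DESeq2 and 1218 with the length trend removed, against 677, and the FPKM settings gave 754 and 653. Beyond a log2 fold change of 2, 360 were higher and 111 lower with at least 10 counts in every library, 259 and 127 with log2(FPKM + 1), and 337 higher with log2(FPKM + 0.1), against 605 and 244. Leaving out 1 library gave 826 to 1755 higher, 436 to 1502 lower (1502 without ox-LDL 2, 436 without control 4, 437 without ox-LDL 3), and 533 to 687 and 192 to 338 beyond the cutoff. The median log2 fold change shifted by -0.14 with upper-quartile factors, -0.19 with library size alone and 0.17 with no filter. It shifted most with the FPKM settings, by -0.23 with log2(FPKM + 1) and -0.27 with log2(FPKM + 0.1), each over 10470 genes.

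Same-numbered libraries showed no general pairing: 2 of the 5 pairs had a correlation of deviations above 0.1 (range -0.28 to 0.44). Of the 10 libraries, 3 correlated best with their own number, and control 5 and ox-LDL 5 did so with each other (0.41). The trends on gene length enter these correlations, so they cannot exclude a pairing. With a replicate block 885 genes were higher and 549 lower, 2 and 2 of these genes among them. The ratios were then -1.75 (exact p = 0.0625), 0.87 (0.125) and 6.68 (0.0625), where 0.0625 is the smallest p that 32 sign arrangements give. Leaving out 1 library gave -1.92 to -1.53, 0.76 to 1.05 and 6.22 to 7.01. Low counts limit Il10, Lif and the control level of Il6.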
